A study of Mus musculus with 2 samples.

Results

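Resting Th1 memory cells were defined here as T cells that carried messages of the type 1 helper (Th1) programme. No message of its main cytokine, interferon gamma, was captured in them. A T cell needed at least 2 UMIs (unique molecular identifiers, 1 per captured RNA molecule) summed over Cd3e, Cd3d, Cd3g and Trac. A member had a UMI of at least 2 of the 5 markers Ly6c2, Cxcr3, Il18r1, Il18rap and Tbx21, and no UMI of Ifng, Foxp3, Gzmk, Klrd1, Il1rl1 or Mki67. These 11 genes chose the members, and their values below are descriptions only. The rule found 1201 members among 13771 T cells with a clear hashtag, out of 22960 barcodes in the expression library.

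The cells came from C57BL/6 Foxp3.Cre-YFP mice, in which Cre and a yellow fluorescent protein are made where the regulatory T cell (Treg) gene Foxp3 is active. Per the labels, Bmal1, the clock transcription factor encoded by Arntl, was deleted (bmal1KO) or kept (bmal1WT) in Tregs, so all groups share the Cre allele. CD4+ T cells, 34000 from visceral adipose tissue (VAT) and 32000 from spleen, were sorted at zeitgeber times ZT0 and ZT12 (hours after lights on), tagged with hashtag antibodies and pooled into 1 expression library and 1 hashtag library. The number, age and sex of the mice and any pooling are not given in the sources used here. The labels name the hashtags by number alone, so VAT and spleen, bmal1KO and bmal1WT, and ZT12 and ZT0 could not be compared here. Hashtags are not replicates. Each is given its own value, no test was run, and all intervals are 95% intervals that cover counting error only.

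Th1 cells arise from naive CD4 T cells under interleukin-12 and the transcription factor T-bet, encoded by Tbx21, and defend against intracellular microbes mainly by making interferon gamma. Between encounters, Th1 memory cells keep the receptors that let them respond quickly. Il18r1 and Il18rap encode the chains of the interleukin-18 receptor, which works together with interleukin-12, and Cxcr3 encodes the receptor for chemokines that interferon gamma induces. Ly6c2 encodes Ly6C2, a membrane-anchored surface protein found on memory T cells and monocytes. In adipose tissue, interferon gamma from Th1 cells is known to promote inflammation, which VAT Tregs restrain.

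The tags that split the members into 6 sets were short DNA barcodes, shown here because every value by hashtag rests on them.
hashtag 1: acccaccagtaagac
hashtag 2: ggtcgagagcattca
hashtag 3: cttgccgcatgtcat
hashtag 4: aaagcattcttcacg
hashtag 5: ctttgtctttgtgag
hashtag 6: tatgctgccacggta
A cell counted as tagged when its top tag held at least 80% and at least 10 of the counts of these 6 tags, which 14382 of the 21231 cells that passed the cell filter did.

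Nkg7, a cytotoxic granule protein of Th1 and killer cells, and Xcl1, a chemokine that draws dendritic cells, stood among the genes most above naive-type cells (below), and both carry the core T-box element GGTGTGA upstream. The element was searched on both strands of the 250 bases before each RefSeq gene start (build GRCm38.p6), and 3.33% of 32851 such windows hold it. Of the genes called higher in members than in naive-type cells (rule below), 15 of the 237 with a window (6.33%) had a match. Of all genes compared there, 3.30% did. Most genes called higher thus had no match. Nkg7 and Xcl1 were picked for display, and the windows of Socs2 and Ccl5, whose ratios were larger, are not described. The upstream stretches of Nkg7 (chr7:43436888-43437137, plus strand) and Xcl1 (chr1:164935523-164935772, minus strand) are given with the match in capitals, which lies 13 bases before the start of Nkg7 and 188 bases before that of Xcl1.
Nkg7: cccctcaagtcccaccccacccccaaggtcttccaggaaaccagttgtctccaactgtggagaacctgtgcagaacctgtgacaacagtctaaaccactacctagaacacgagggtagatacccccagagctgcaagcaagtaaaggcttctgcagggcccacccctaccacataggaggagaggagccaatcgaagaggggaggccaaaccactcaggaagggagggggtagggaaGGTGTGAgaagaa
Xcl1: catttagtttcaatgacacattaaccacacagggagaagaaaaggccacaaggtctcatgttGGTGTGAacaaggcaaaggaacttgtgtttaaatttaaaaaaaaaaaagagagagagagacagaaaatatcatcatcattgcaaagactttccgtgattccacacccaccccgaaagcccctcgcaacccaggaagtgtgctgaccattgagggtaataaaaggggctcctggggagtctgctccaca
A match is a run of letters, not a binding site, and none of the 5 markers of the rule had a match in its window.

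The expression library held 96923402 UMIs of 55487 genes. It shared 22952 barcodes with the hashtag library. Members had a median of 3049 UMIs, 1286 genes and 2.20% mitochondrial UMIs, against 3198 UMIs, 1271 genes and 2.17% over all T cells.

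Members made up 8.72% of T cells (8.26 to 9.20). Hashtags 1 to 6 held 358, 145, 244, 125, 175 and 154 members. Their shares of T cells were 13.8%, 10.1%, 14.8%, 10.6%, 4.88% and 4.61% in that order. Hashtags 1 and 3 had the highest shares and hashtags 5 and 6 the lowest, and the intervals of hashtags 5 and 6 (4.20 to 5.64 and 3.92 to 5.37) did not reach those of the other 4, of which the lowest began at 8.62. The marker rule was also met by 5.40% of 611 tagged cells that failed the T cell rule, whose median depth was 1201 UMIs, and by 2.95% of 2818 T cells with at least 2 naive-state genes, Ccr7, Lef1 or Dapl1 among them, at a median of 3894 UMIs. The shares in hashtags 5 and 6 were thus close to these background shares.

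**Figure D1:**
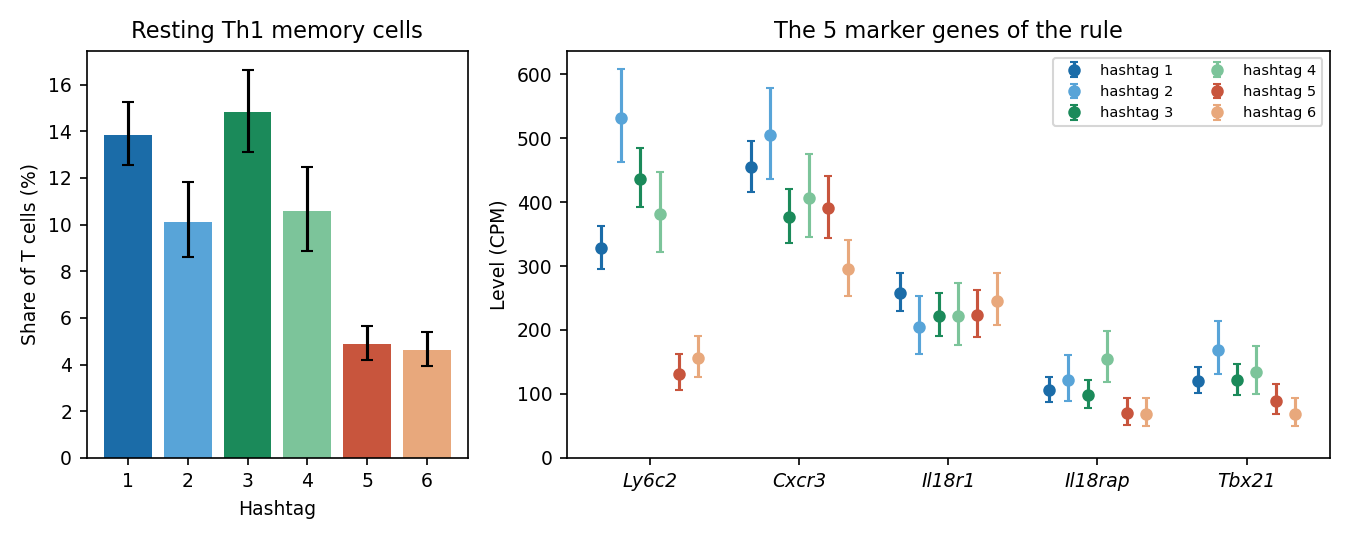
Left, members as a share of T cells (%) in each hashtag, with exact binomial 95% intervals, and right, levels of the 5 marker genes in members (CPM, UMIs scaled to a common total) with exact Poisson 95% intervals. Shares lie between 10.1% and 14.8% in hashtags 1 to 4 and at 4.88% and 4.61% in hashtags 5 and 6, and Ly6c2 is lowest in hashtags 5 and 6 while Il18r1 stays between 204 and 258 CPM.

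The label under which these cells were proposed names Ly6c2 and Il18r1, but Cxcr3 was the marker most often found. Cxcr3 was detected in 77.7% of members, Il18r1 in 53.5%, Ly6c2 in 39.6%, Tbx21 in 31.8% and Il18rap in 27.2%. Most members, 902 of 1201 (75.1%), had exactly 2 markers, 244 had 3, 51 had 4 and 4 had all 5. Among the 902, the commonest pair was Cxcr3 with Il18r1 (282 cells, 31.3%), and Ly6c2 with Il18r1 accounted for 71 cells (7.87%). Ly6c2 and Il18r1 together therefore described a minority of the cells, and the members are called resting Th1 memory cells below without those names.

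The markers differed in how they varied between hashtags. Ly6c2 stood at 328, 532, 436, 381, 132 and 156 CPM (UMIs scaled to a common total per class and hashtag) in members of hashtags 1 to 6, and its share of members with a UMI ran from 25.7% in hashtag 5 to 50.3% in hashtag 2. Tbx21 stood at 120, 169, 121, 134, 89.4 and 68.9 CPM. Il18r1, at 258, 204, 223, 221, 224 and 246 CPM, had overlapping counting intervals in all 6 hashtags. Its share of members with a UMI, however, ran from 40.7% in hashtag 2 (32.6 to 49.2) to 66.9% in hashtag 6 (58.9 to 74.2). On GRCm38.p6, Il18r1 (chr1:40465552-40500854) and Il18rap (chr1:40515362-40551707) lie side by side next to Il1rl1 (chr1:40404864-40465418), the interleukin-33 receptor gene whose absence was part of the rule. Tbx21 lies at chr11:97098007-97115331 and Cxcr3 at chrX:101731535-101734147. Ly6c2 (chr15:75108161-75112066) has a near-identical neighbour in Ly6c1 (chr15:75044018-75048920), and the split of reads between the pair is uncertain.

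Of the 2364 tagged T cells with 2 or more markers, 550 had a UMI of Ifng, 335 of Il1rl1, 183 of Mki67, 171 of Gzmk, 161 of Klrd1 and 109 of Foxp3, with some cells counted under several genes. Just outside the marker threshold, 2420 T cells had exactly 1 marker, with the same 6 genes at 0. Ccl5, a chemokine of effector T cells, stood at 2697 CPM in members with exactly 2 markers, against 1235 CPM in cells with exactly 1. The naive-state gene Lef1 stood at 131 CPM in members with 2 markers, against 223 CPM in cells with 1. These values are pooled over hashtags, and the hashtags differ between the groups. Hashtags 5 and 6 held 722 and 667 of the 2420 cells with 1 marker, against 146 and 132 of the 902 members with 2. The part of the hashtags in these differences was not tested.

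Marker lists were read to check the name, and genes that the rule used are pointed out. The 10 Th1 markers that the rule did not use summed to 4949 CPM in members (2641 to 6722 over hashtags), against 3082 CPM in all other T cells (1889 to 4334). Ccl5 made up most of this sum, and Il12rb2, the inducible chain of the interleukin-12 receptor, was near 0 at 2.50 CPM. The 8 CD4 T cell markers summed to 5598 CPM in members and 5348 CPM in other T cells. This sum is a description only, as Cd3e, Cd3d, Cd3g and Trac in it chose the T cells of both classes. Cd4 itself stood at 199 CPM in members and 165 CPM in other T cells. Cd8a and Cd8b1 together reached 9.50 CPM in members and 11.2 CPM in other T cells. Cytokine genes of other helper lineages were absent or rare in members and in other T cells. Il17a, Il17f and Il22 had 0 UMIs in members, against 8, 2 and 2 in all other T cells. Il4 stood at 5.75 CPM in members and 3.70 CPM in other T cells. The 8 Th17 markers summed to 97.0 CPM in members and 70.1 CPM in other T cells. The 7 Th2 markers, with Il1rl1 at 0 by the rule, summed to 176 and 379 CPM, and Gata3 had a UMI in 34.8% of members.

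Other cell types left traces. The 9 NKT and innate-like markers in the files summed to 182 CPM in members (133 to 315 over hashtags), against 96.8 CPM in other T cells (76.8 to 139). The defining NKT gene Zbtb16 had a UMI in 1.08% of members, against 0.61% of other T cells. Among members it reached 1.71% in hashtag 5 and 4.55% in hashtag 6. Klrb1c, another gene of this list, had a UMI in 2.25% of members and 1.14% of other T cells. It was found in 3.43% of members in hashtag 5 and 7.14% in hashtag 6. B cell, macrophage, stromal and endothelial genes were present at 3 or more UMIs in 9, 16, 7 and 11 members, and 1 cell held from 51 of 307 macrophage UMIs to 982 of 1795 stromal UMIs. The part of these traces in the results below was not tested, but values without such cells are given where they change a result. Erythroid markers summed to 1688 CPM in members (149 to 5169 over hashtags), against 137 CPM in Ifng-detected Th1 cells, 1348 CPM in naive-type cells and 1409 CPM in all other T cells, and the top member held 45.1% to 51.7% of the UMIs of each of 4 haemoglobin genes. The 8 Treg markers, with Foxp3 at 0 by the rule, summed to 1030 CPM in members, against 1311 CPM in all other T cells. Ikzf2, which encodes Helios, stood at 311 CPM in members, against 264 CPM in Ifng-detected Th1 cells, 896 CPM in T cells with a Foxp3 UMI and 79.7 CPM in naive-type cells. With every cell thinned to 1500 UMIs, at least 3 of 7 Treg genes were found in 12% of members (26.8% unthinned), against 11% of Ifng-detected Th1 cells (27.4% unthinned), 51.5% of T cells with a Foxp3 UMI and 2.86% of naive-type cells.

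Members were first set against the 361 cells that met the same rule except that Ifng was detected. This asks what else differs between Th1 cells with and without a captured Ifng UMI. A count of 0 at the depth of these cells need not mean that the message was absent. Only hashtags 1 to 4 had at least 30 cells on both sides, 872 members and 329 Ifng-detected cells in all, at similar median depths (2875 and 3023 UMIs). Differences were small. Slamf6, S1pr1 and Klf2 were higher and Junb, Nr4a1 and Gadd45b lower in members in all 4 hashtags, while Ccl5 and Id2 moved in no common direction. The tissue egress and retention list, which holds S1pr1, was level, with 6 of 12 medians positive and a list median of -0.0028. A gene was called when it had at least 10 CPM in either class, a median log2 ratio over hashtags of at least 1 in size, and the same sign in every hashtag used. By this rule 43 of 8051 genes were higher in members (0.534%) and 88 were lower (1.09%), and 109 of these 131 (1.63% of genes) had a pooled counting interval that left out 0. With 1 hashtag left out the counts reached up to 110 higher and 204 lower. As background to the lists below, 607 genes were higher and 637 lower in members in all 4 hashtags, called or not. Among the 2877 genes at 50 CPM or more, 5 were higher (0.174%) and 6 lower (0.209%).

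Slamf6, a receptor found on T cells that keep the capacity to self-renew, stood at 250, 184, 259 and 276 CPM in members of hashtags 1 to 4, against 130, 76.0, 105 and 73.5 CPM in Ifng-detected cells. The ranges did not overlap, and the median log2 ratio was 1.27 (0.94 to 1.86 over hashtags). Rasgrp2, which activates the small GTPase Rap1 in adhesion, was higher by 1.10 (0.47 to 1.36) and Rasa3, a Ras and Rap1 inhibitor, by 1.06 (0.10 to 2.78) on the log2 scale. The call for Rasa3 rests largely on hashtag 4, where Ifng-detected cells had 6.12 CPM, and its median was -0.14 when every cell was thinned to 1500 UMIs, which left hashtags 1 and 2. The other genes called higher at 50 CPM were Lyz2 and Slpi, and 1 member held 42.4% of the Lyz2 and 91.0% of the Slpi UMIs.

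The naive and quiescence genes moved toward members without passing the 2-fold limit. Of 16 compared, 13 had a positive median, 5 were higher in all 4 hashtags and none was called, with a list median of 0.44. S1pr1, the receptor that lets T cells leave tissue for blood and lymph, stood at 191, 171, 207 and 173 CPM in members, against 83.1, 137, 77.0 and 116 CPM in Ifng-detected cells, a median log2 ratio of 0.87. Klf2, the factor that switches on S1pr1, was at 554, 734, 595 and 566 CPM in members, against 316, 505, 424 and 306 CPM (0.67). Members were above Ifng-detected cells in every hashtag for both genes. Il7r, the survival receptor of memory T cells, had a median log2 ratio of 0.64, Tcf7 of 0.44 and Lef1 of 0.43.

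Activation genes lay on the other side. Of 22 genes of the receptor signal and AP-1 list, 1 had a positive median, 12 were lower in members in all 4 hashtags and 2 were called, with a list median of -0.39. Junb, an AP-1 subunit, stood at 1930, 1962, 1438 and 1674 CPM in members, against 2635, 2360, 1936 and 2803 CPM in Ifng-detected cells (median log2 ratio -0.44). Nr4a1, an early gene of T cell receptor signals, was at 128, 108, 89.2 and 111 CPM in members, against 215, 156, 126 and 208 CPM (-0.64). Members were below Ifng-detected cells in each hashtag for both. The called genes were Egr2, from 7 and 19 UMIs (-2.69), and Irf4, from 10.3 and 23.2 CPM (-1.21). Gadd45b, a stress and cytokine response gene, stood at 312, 184, 210 and 260 CPM in members, against 665, 281, 410 and 545 CPM, and was called lower (-1.02). Against the other classes below, the same list was higher in members. Against naive-type cells, 19 of 21 medians were positive and 9 genes were higher in all 6 hashtags. That list median was 0.67, against 0.20 for all genes. Against Gzmk-detected cells, in hashtag 1 alone, 15 of 21 ratios were positive, with a list median of 0.55.

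Effector cytokine genes had a list median of -0.41, with 6 of 13 lower in members in all 4 hashtags, 0 higher in all and 1 called. Xcl1 was the called gene, at 41.6, 80.7, 30.6 and 30.9 CPM in members, against 132, 380, 123 and 61.2 CPM in Ifng-detected cells (-1.83). In that class 1 cell held 35.7% of the Xcl1 UMIs, and the median was 0.068 after thinning, which left hashtags 1 and 2. Tnf had a median log2 ratio of -0.31, Il2 of -0.63 and Il10 of -0.73. Among tissue genes, the chemokine receptor Cxcr6 (-0.63) and the collagen-binding integrin gene Itga1 (-0.81) were lower in members in all 4 hashtags, below the 2-fold limit. Ccl5 had a median log2 ratio of 0.04 (-0.59 to 0.06), Id2 of -0.19 and Nkg7 of -0.40, with signs that differed between hashtags. The 8 Th1 markers compared had a median of -0.18 and none was called.

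**Figure D2:**
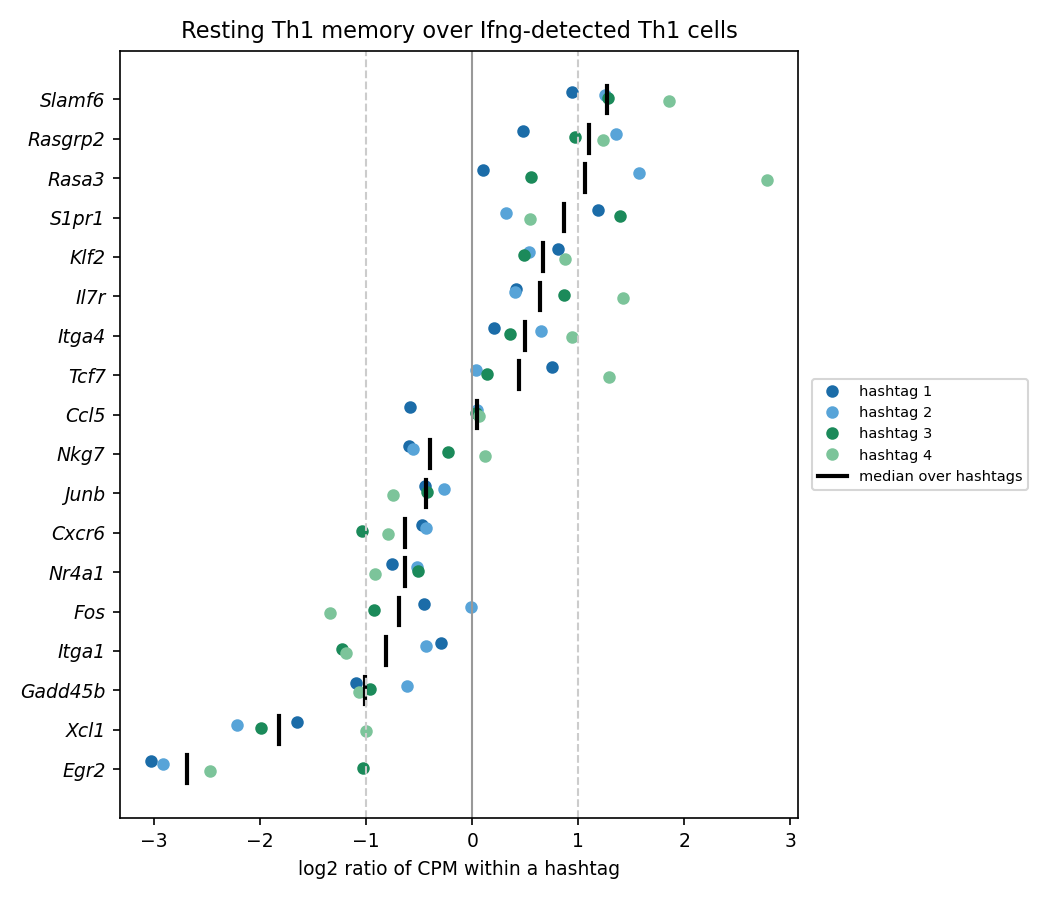
Log2 ratio of CPM, members over Ifng-detected Th1 cells, within hashtags 1 to 4 (points) and their median (bars), for 18 genes. Slamf6, S1pr1, Klf2 and Il7r lie right of 0 in all 4 hashtags, Junb, Nr4a1, Gadd45b and Xcl1 lie left of 0 in all 4, and Ccl5 and Nkg7 straddle 0.

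The genes with the largest ratios at 10 CPM rested on few UMIs or few cells. On the higher side these were Adamts1, C1qtnf6, Lyz2, Mlst8, Zbtb32, Faap100, Slc12a9, Slpi, Habp4, Slc39a8, Atp1b1 and Eya3, with medians from 1.54 to 2.65. On the lower side they were Ighm, Ly6d, Igkc, Cd79a, Egr2, Spp1, Nefh, Stfa3, Atp6v0a1, Adamts5, Igkv14-126 and Fam214b, with medians from -4.30 to -2.13. Ighm, Igkc and Cd79a are B cell genes, and B cell and plasma cell genes summed to 2975 UMIs in the Ifng-detected cells, of which 1421 came from 1 cell. Without cells that had 3 or more UMIs of another lineage, the median of Ighm was 0.22 and that of Lyz2 was -0.026.

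Cells that met the same rule except that Gzmk, which encodes granzyme K, was detected were too few for a full comparison. Only hashtag 1 had 30 cells on both sides, 358 members against 35 Gzmk-detected cells with 115259 UMIs, so that 10 CPM is about 1 UMI among the Gzmk-detected cells. Past the 2-fold limit lay 1179 of 8335 genes on the higher side (14.1%) and 1127 on the lower (13.5%), and 346 of these 2306 (27.7% of genes) had a counting interval that left out 0. At 50 CPM or more the shares were 5.67% and 7.02% of 3334 genes. Eomes, the T-box factor of Gzmk-producing T cells, stood at 3.54 CPM in members and 130 CPM in Gzmk-detected cells (4 and 15 UMIs). Ccl5 stood at 2749 CPM in members and 9466 CPM in Gzmk-detected cells, a log2 ratio of -1.78 with an interval from -1.88 to -1.68. Ikzf2 went the other way, at 420 CPM in members and 86.8 CPM in Gzmk-detected cells (2.21, interval 1.38 to 3.34). Fos, an AP-1 subunit, was also higher in members (2.31, from 363 UMIs in members and 7 in Gzmk-detected cells), and so was Dusp1, a phosphatase induced by stimulation (1.37, from 441 and 17 UMIs). Id2 stood at 628 CPM in members and 633 CPM in Gzmk-detected cells, with an interval from -0.36 to 0.36.

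The genes furthest apart in that hashtag were mostly of other cell types. Slpi, Rarres2, Igfbp7, C3, Dcn, Aebp1, Serping1 and Efemp1 had 67 to 984 UMIs in members and at most 4 in Gzmk-detected cells, but 1 member held 62.4% to 97.2% of the UMIs of each. On the other side, the haemoglobin genes Hba-a2 and Hbb-bt and the erythroid gene Alas2 stood higher in Gzmk-detected cells, where 1 cell held 98.3% or more of their UMIs. Tmem154, Camk2g, Bloc1s2 and Itga1 completed the higher side with 62 to 91 UMIs in members and 0 in Gzmk-detected cells, and the rest of the lower side, such as Mdm1, Rasd1 and Trim10, had at most 4 UMIs in either class.

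Against naive-type cells the differences were large. These 1714 T cells had none of the 5 markers, UMIs of at least 2 naive-state genes, Ccr7, Lef1 or Dapl1 among them, and the same 6 genes at 0. All 6 hashtags were used. Members had more message of chemokines, chemokine receptors, granule genes and memory genes, and less of naive-state genes. Of 7850 genes, 315 were called higher in members (4.01%) and 73 lower (0.93%), and 383 of these 388 (4.94% of genes) had a pooled interval that left out 0. At 50 CPM or more, 122 of 2755 were higher (4.43%) and 28 lower (1.02%). The median of all genes was 0.20, and 1221 were higher and 308 lower in all 6 hashtags, called or not, beside which the list values stand. Because both classes were chosen by Th1 and naive genes of the same cells, genes that vary with those can restate the choice, and the counts are a description.

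Ccl5 stood at 2749, 4155, 3871, 3386, 2485 and 1308 CPM in members of hashtags 1 to 6, against 253, 294, 149, 87.5, 153 and 138 CPM in naive-type cells. Its lowest member value was above its highest naive-type value, and its median log2 ratio was 3.91 (3.25 to 5.22). Nkg7 stood at 726, 855, 698, 775, 373 and 315 CPM in members, against 53.8, 37.9, 64.7, 29.2, 42.8 and 30.3 CPM in naive-type cells (3.53). It too did not overlap, and after thinning 46.8% of members and 5.24% of naive-type cells had a Nkg7 UMI (59.8% and 10.4% unthinned). Xcl1 stood at 30.3 to 80.7 CPM in members and had no UMI in naive-type cells of hashtags 1 to 4 (median log2 ratio 3.81). Over the Th1 markers outside the rule, 8 of 8 had a positive median and 5 were called, with a list median of 2.55, and Id2 and Ccr2 were among the others called.

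Socs2 had the largest median ratio. It encodes a suppressor of cytokine signalling that STAT5 induces. It stood at 209, 232, 260, 276, 27.3 and 32.8 CPM in members, against 10.8, 9.48, 4.98, 7.29, 12.4 and 11.5 CPM in naive-type cells (4.0, 1.16 to 5.13). Members of hashtags 1 to 4 were far above all naive-type values, while those of hashtags 5 and 6 were above them by a smaller step. The remaining genes of largest ratio were Cpne7, Klrk1, Gna15, Itga1, Plac8, Serpina3g, Mmp9 and Cxcr6, with medians from 3.05 to 3.35. Klrk1, which encodes the activating receptor NKG2D, had 97 UMIs in members and 4 in naive-type cells. Serpina3g, a protease inhibitor of memory T cells, was the only gene of these 8 that was highest in hashtag 5, at 106 CPM.

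Chemokine receptors were the list furthest above naive-type cells. All 6 compared had a positive median and 5 were called, with a list median of 2.64. Cxcr6, which binds CXCL16 and marks tissue T cells, stood at 320, 287, 190, 188, 164 and 171 CPM in members, against 113, 123, 9.96, 21.9, 17.7 and 15.6 CPM in naive-type cells (3.05). Ccr2, a receptor for the monocyte chemokine CCL2, stood at 168, 176, 176, 198, 59.1 and 63.9 CPM in members, against 16.1, 19.0, 14.9, 29.2, 17.7 and 16.3 CPM (2.76). Neither gene overlapped between the classes. Ccr4 (2.52) and Cxcr4 (1.46) were also called. Of 12 effector cytokine genes, 7 were called higher, with Tnfsf11, Tnfsf14, Il2, Tnf and Cd40lg beside Ccl5 and Xcl1. Of 11 granule genes, 6 were called higher, among them Ctsw (2.37) and Fasl (1.95), whereas the median of Gzma (2.19) came from levels of 1.51 to 129 CPM in members, and 1 cell held 94.1% of its UMIs in the highest hashtag.

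Memory genes were higher in members. Of 23 compared, 20 were higher in all 6 hashtags and 15 were called, with a list median of 1.28. S100a4, a calcium-binding protein of migrating and memory T cells, stood at 1655, 1823, 1251, 1401, 612 and 380 CPM in members, against 350, 313, 134, 131, 113 and 111 CPM in naive-type cells (2.48). Il2rb, the interleukin-2 and interleukin-15 receptor chain on which memory T cells depend, stood at 340, 366, 397, 340, 235 and 220 CPM in members, against 145, 75.8, 84.6, 58.3, 50.5 and 45.6 CPM (2.20). Neither gene overlapped between the classes. S100a6 (2.43), Lgals1 (2.29), Ahnak (2.25), Anxa2 (2.23), Itgb1 (1.91) and the hyaluronan receptor Cd44 (1.79) were further called genes. Il7r was not, with a median of 0.05 and signs that differed between hashtags.

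Receptor and signalling genes of the Th1 pathway moved unevenly. Of 15 genes of the interleukin-12, interleukin-18 and interferon gamma receptor list, 2 were called higher and 1 lower. Ifngr1, the ligand-binding chain of the interferon gamma receptor, stood at 494, 398, 510, 438, 147 and 166 CPM in members, against 199, 114, 139, 124, 81.3 and 96.7 CPM in naive-type cells (1.52), and members were above naive-type cells in each hashtag. Ifngr2, the signalling chain, was called lower (-1.34, 7.75 CPM in members and 25.3 CPM in naive-type cells), and Il12rb1 was called higher (2.02, 13.2 CPM in members and 2.81 CPM in naive-type cells). Among the partners of T-bet, Id2 (2.33), Bhlhe40 (2.0) and Zeb2 (1.72) were called and Runx3 (0.89) was not.

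Naive-state genes were lower. Of 12 compared, after the 4 that chose the comparator were set aside, 7 were lower in all hashtags and 5 were called, with a list median of -0.78. Satb1, a chromatin organiser of naive T cells, stood at 39.9, 25.2, 33.0, 33.5, 132 and 175 CPM in members, against 237, 398, 349, 372, 329 and 351 CPM in naive-type cells (-2.98). Igfbp4 stood at 55.8, 32.8, 28.1, 36.0, 96.9 and 141 CPM in members, against 242, 531, 473, 415, 417 and 496 CPM (-2.81). Members lay below all naive-type values for both genes. Il6ra (-1.35), Bach2 (-1.27) and Foxp1 (-1.07) completed the called genes of the list, and Tcf7 (-0.77) was lower in every hashtag without being called. The other genes of lowest ratio were Nacc2, Treml2, Actn1, Ggt5, Cnn3, Pdlim4, Atp1b1, Slc28a2b, Mettl2 and Sh3bp5, with medians from -2.77 to -1.84. Rgs10, a brake on G protein signals, was called lower at -1.16.

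Metabolic and clock lists had medians above that of all genes, with few members called. Of 15 glycolysis genes, 9 were higher in all 6 hashtags and Hk2 (2.28) and Slc2a3 (1.30) were called, with a list median of 0.54. Of 11 lipid genes, with a list median of 0.86, Cd36 (1.71) and Fabp4 (1.38) were called, but 1 member held 26.7% of the Cd36 and 21.8% of the Fabp4 UMIs of the class, and both are also made by fat and vessel cells. Of 12 clock genes compared, 10 had a positive median, the list median was 0.71, and Rora (2.46) and Bhlhe40 (2.0), which are also T cell regulators, were called. Rora stood at 143, 126, 117, 92.7, 77.2 and 91.8 CPM in members, against 48.4, 28.4, 9.96, 14.6, 8.02 and 15.6 CPM in naive-type cells. Arntl had a median of 0.88 (0.02 to 2.06), from 79 and 72 UMIs.

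Several markers of other cell types were also higher in members than in naive-type cells. Of 6 NKT and innate-like markers compared, 4 were called, Xcl1, Klrk1, Tyrobp (2.50) and Fcer1g (1.88), with a list median of 2.19, while Trdc, a constant gene of gamma-delta T cells, was not (-0.13). Of 4 erythroid markers, 3 were called, with a list median of 1.32, although the single-cell shares given above hold for them. Of 5 endothelial markers, Cdh5 (1.49, from 52 and 20 UMIs) and Fabp4 were called, with a list median of 1.49, while Pecam1 had a median of -0.68. Of 4 macrophage and monocyte markers, Lyz2 was called (2.21), and 1 member held 40.2% of its UMIs. The part of such cells in the comparison was not tested.

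**Figure D3:**
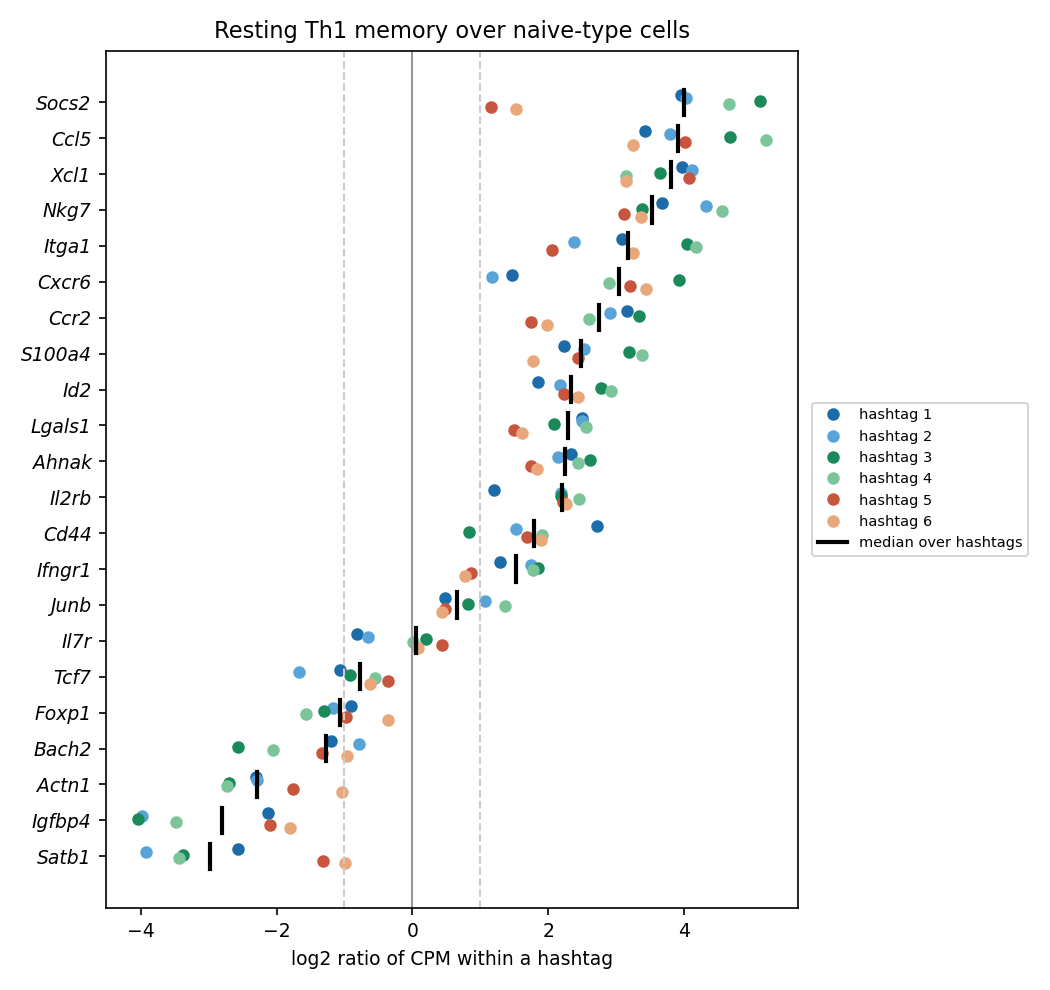
Log2 ratio of CPM, members over naive-type cells, within hashtags 1 to 6 (points) and their median (bars), for 22 genes. Ccl5, Nkg7, Cxcr6, S100a4 and Il2rb lie right of 0 in all 6 hashtags, Satb1, Igfbp4, Bach2 and Tcf7 lie left of 0 in all 6, and Il7r straddles 0.

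Levels also differed between hashtags within the members. Of 3462 genes with at least 50 CPM in the highest hashtag, 133 (3.84%) were at least 4 times higher there than in the lowest. In 46 of these, 1 cell held 50% or more of the UMIs of the highest hashtag, among them the genes of largest spread, Ighg2b, Rarres2, Mgp, Ifitm1, Serping1, Efemp1, Clu, Cfd, Igfbp5, Hbb-bt, Gzma and Cd63, most of them genes of plasma, stromal or red cells. The genes described next come mainly from the 45 in which no cell held over 10%.

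A set of AP-1 and feedback genes among them was higher in hashtags 1 to 4 than in hashtags 5 and 6. Junb stood at 1930, 1962, 1438, 1674, 482 and 426 CPM in members of hashtags 1 to 6, and Dusp1 at 391, 532, 306, 407, 89.4 and 93.4 CPM. Fos, Fosb, Nr4a3, Klf6, Tnfaip3, Rgs2, Ppp1r15a and Gadd45b split the same way. Naive-type cells of the same hashtags showed the split too for Junb and Dusp1, with Junb at 1378, 929, 812, 649, 344 and 317 CPM and Dusp1 at 172, 190, 164, 241, 61.2 and 60.3 CPM. The log2 ratio of Junb, members over naive-type cells, lay between 0.43 and 1.36 in every hashtag.

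Socs2 also split in the members, while its naive-type values stayed between 4.98 and 12.4 CPM. Dusp5, an ERK phosphatase, stood at 253 (hashtag 1), 224 (hashtag 2), 188 (hashtag 3), 157 (hashtag 4), 28.8 (hashtag 5) and 21.3 CPM (hashtag 6). Bhlhe40, a factor needed for Th1 cytokine production, stood at 96.6, 98.3, 67.2, 72.1, 22.7 and 16.4 CPM in members, against 10.8, 37.9, 0, 36.4, 6.69 and 3.51 CPM in naive-type cells. In members the 4 higher values of these genes did not overlap the 2 lower ones. These genes were picked for a spread of at least 4 times between hashtags, so a gap follows in part from the choice. How many of the 3462 genes split hashtags in this way was not counted. Anxa1, Lmna, Mmp9, Dennd4a, Phlda1 and Lilr4b were also lowest in hashtag 5 or 6.

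Several naive-state genes ran in the opposite direction among the members. Satb1, Dapl1 and Dtx1 were highest in hashtags 5 and 6, with Dtx1 at 22.1, 30.3, 36.7, 18.0, 130 and 116 CPM. Ccr7 stood at 47.8, 22.7, 40.3, 41.2, 126 and 125 CPM, and Lef1 at 99.2, 83.2, 91.7, 82.4, 164 and 223 CPM. Hashtags 5 and 6 also held the most naive-type cells, 742 and 791 of 1714, and their member shares were close to the background of the marker rule. The part of either in these levels was not tested. Irgm1 and Txnrd1 (lowest in hashtag 4) and Zfpm1 (lowest in hashtag 6) followed neither order. Ly6a (536 to 687 CPM), Itgal (138 to 164 CPM), Ldha (352 to 400 CPM) and Cd4 (185 to 229 CPM) were level across all 6 hashtags. Il18r1, a gene of the rule, was level in CPM but not in its share of members with a UMI.

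**Figure D4:**
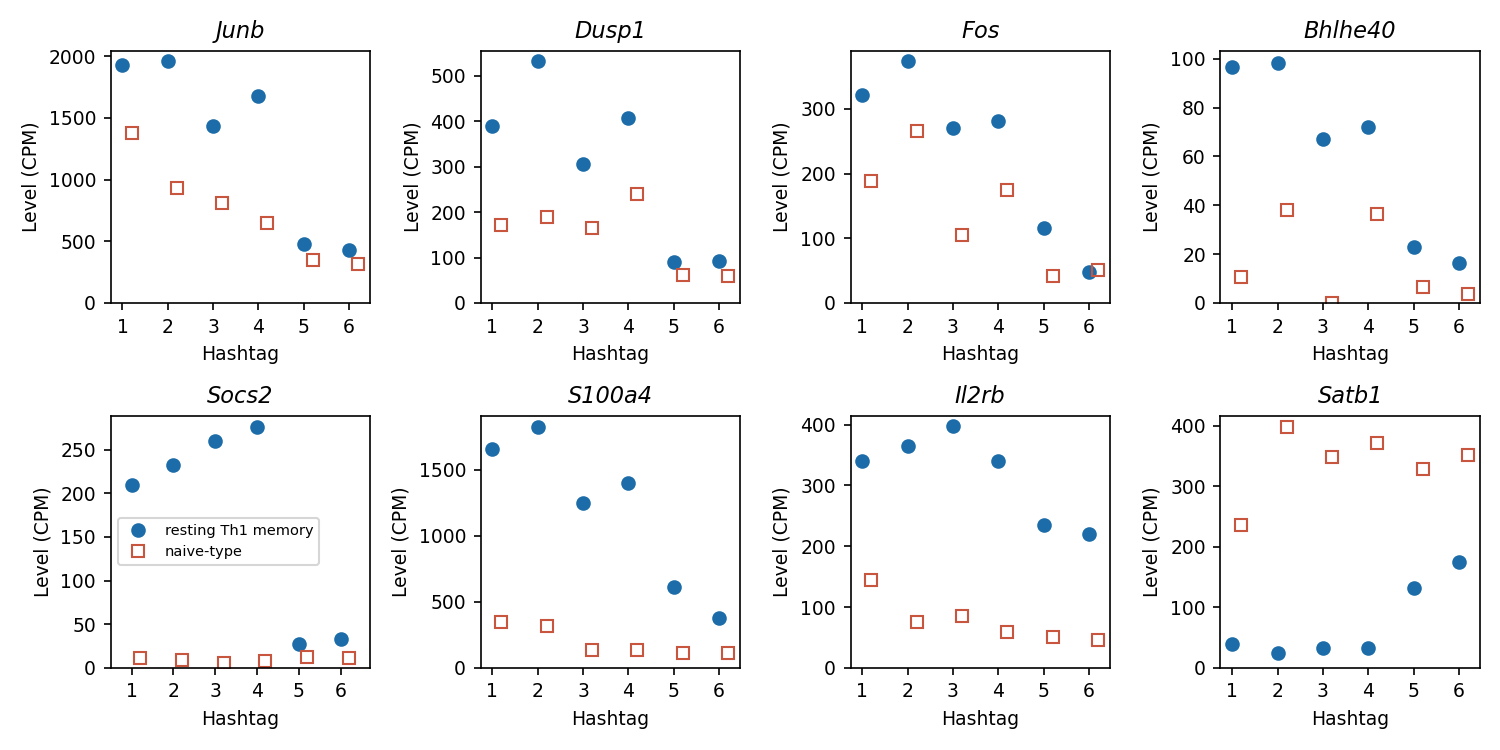
Levels (CPM) of 8 genes in each hashtag, in members (filled circles) and naive-type cells (open squares). Junb, Dusp1 and Fos are higher in hashtags 1 to 4 in both classes, Socs2 is higher there in members while naive-type cells stay at or below 12.4 CPM, and Satb1 is lower in members than in naive-type cells in every hashtag.

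Clock genes were low in the members, and their order over hashtags rests on few UMIs. Arntl, the gene deleted in Tregs of the knockout mice, stood at 23.0, 22.7, 9.78, 20.6, 19.7 and 24.6 CPM in members, from 79 UMIs in all. The members were chosen without a Foxp3 UMI, although some carried other Treg genes as given above. Per1, a repressor of the clock and an immediate early gene, stood at 25.7, 35.3, 14.7, 33.5, 7.57 and 8.20 CPM. Dbp, a clock output gene, ran from 17.7 to 37.9 CPM, Nr1d2 from 11.5 to 25.7 CPM, Tef from 5.15 to 17.6 CPM, Cry1 from 8.56 to 25.2 CPM and Clock from 20.2 to 33.7 CPM. Csnk1d, a kinase of the period proteins, was level at 48.9 to 73.1 CPM. Against Ifng-detected cells Tef was called lower in members (-1.06, from 37 and 35 UMIs), and Rora was higher in all 4 hashtags without being called (0.54).

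Members were also split by Ly6c2. The 475 members with a Ly6c2 UMI were set against the 726 without, at median depths of 3031 and 3061 UMIs. Those without Ly6c2 needed 2 of the other markers, so Cxcr3, Il18r1, Il18rap and Tbx21 are higher in them by construction. Of 8120 genes, 20 were called higher in Ly6c2-detected members (0.246%) and 28 lower (0.345%), together 0.591%. With 1 hashtag left out there were 26 to 60 higher and 32 to 51 lower. In all 6 hashtags, called or not, 148 genes were higher and 219 lower. At 50 CPM or more, 0 of 2851 were higher and 3 were lower (0.105%). These 3 were Ikzf2, Ctla4 and Tnfrsf4, all of them genes of activated and regulatory T cells.

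Ikzf2 stood at 282, 138, 92.8, 179, 314 and 70.4 CPM in Ly6c2-detected members of hashtags 1 to 6, against 513, 568, 260, 229, 473 and 249 CPM in Ly6c2-undetected members (median log2 ratio -1.17). Ctla4, the inhibitory receptor for B7 molecules, stood at 79.3, 118, 69.6, 56.0, 72.5 and 32.5 CPM, against 199, 176, 163, 133, 84.9 and 87 CPM in Ly6c2-undetected members (-1.21). Tnfrsf4, which encodes the costimulatory receptor OX40, stood at 74.9, 78.8, 56.7, 56.0, 60.4 and 21.6 CPM, against 169, 191, 142, 81.0, 170 and 94.1 CPM in Ly6c2-undetected members (-1.28). Ly6c2-detected members were lower in every hashtag for all 3 genes. Izumo1r (-0.82) and Icos (-0.59) were lower in all 6 without being called, and Lag3 was called from 4 and 56 UMIs (-1.39). Of the 6 Treg markers compared, 3 were lower in all hashtags and 2 were called, with a list median of -0.82 against -0.03 for all genes. After thinning, at least 3 of the 7 Treg genes were found in 6.15% of Ly6c2-detected members (4.13 to 8.77) and 15.9% of Ly6c2-undetected members (13.2 to 18.9), or 18.1% and 32.5% unthinned.

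**Figure D5:**
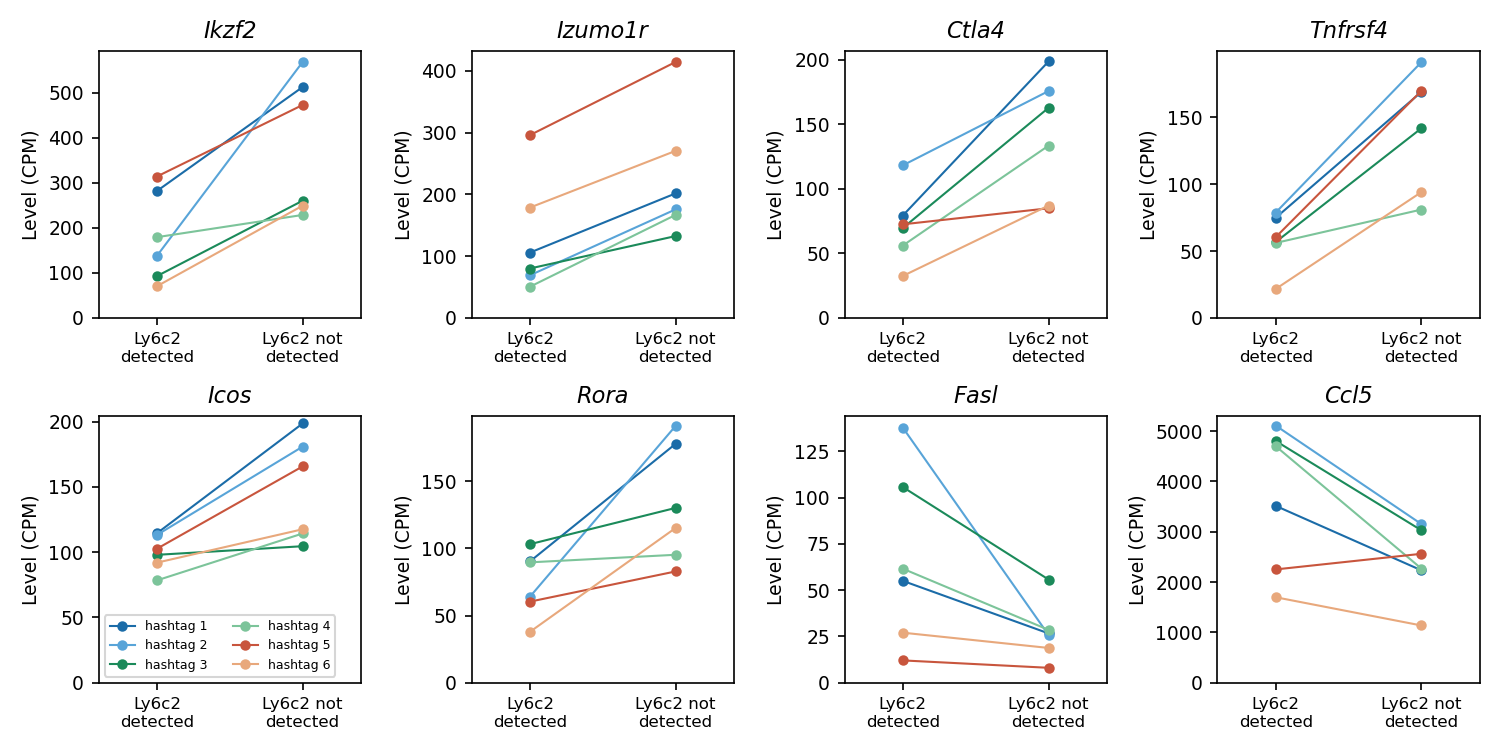
Levels (CPM) of 8 genes in Ly6c2-detected members (left) and Ly6c2-undetected members (right), joined within each hashtag. Ikzf2, Izumo1r, Ctla4, Tnfrsf4, Icos and Rora are lower in Ly6c2-detected members in all 6 hashtags, Fasl is higher in all 6, and Ccl5 is higher in 5.

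Effector lists differed little. Effector cytokines and chemokines had 7 of 13 positive medians and a list median of 0.08, granule genes had 7 of 11 and 0.18, and 0 of either were called. Fasl, the death ligand, stood at 55.1, 138, 106, 61.6, 12.1 and 27.1 CPM in Ly6c2-detected members, against 26.7, 25.8, 55.8, 28.6, 8.09 and 18.8 CPM in Ly6c2-undetected members (0.97, below the limit of 1). Ccl5 was higher in hashtags 1 to 4 and 6 and lower in hashtag 5 (0.66). Cx3cr1, the fractalkine receptor of terminal effector cells, had the largest called ratio, 2.49, from 25 and 8 UMIs, and was at -3.38 in members with 3 or more markers, where hashtag 1 alone could be used. The other called genes at the top were Urgcp, Csf2ra, Mctp2, Cd3eap, Prrt1, Tbkbp1, Dag1, Dnajc25, Jup, Disp1 and Lsr, and those at the bottom beside Lag3 were Inmt, B4galnt4, Inpp5f, H2-Oa, Rtl8b, Tnfsf9, Zfp959, B3gnt5, Tmem43, Pmm1 and Tcf19, all with at most 57 UMIs in either class. Rora was lower in Ly6c2-detected members in all 6 hashtags (-0.69). Memory genes differed little, with 4 of 23 lower in all hashtags and 0 called. The largest of these 4 was S100a10 (-0.37).

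Markers of some other cell types had positive medians in the Ly6c2 split, with 0 called and none of them higher in all 6 hashtags. All 6 endothelial markers compared had a positive median (list median 1.32), as had all 6 NKT and innate-like markers (0.99) and 4 of 5 macrophage and monocyte markers (0.93), against 3740 of 8120 over all genes. The endothelial values rest on few cells, as 1 Ly6c2-detected member held 66.7% of the Cldn5 UMIs and 50% of the Cdh5 UMIs, and 1 held 49.1% of the Lyz2 UMIs. Ly6c2 is itself made by monocytes, and the part of such traces in the split was not tested.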

How the data were processed

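Gene expression and hashtags of the same cells were read as 2 tables of UMI or tag counts per barcode, as deposited by the authors. Cell Ranger 6.0, Seurat 3 and the mm10 build are listed in the submitters' processing notes, but per the file headers the expression counts came from cellranger 4.0.0, and the versions were not reconciled. Of 22960 expression barcodes, 22952 were also in the hashtag library, which held 149999.

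Cells needed at least 500 genes and under 10% mitochondrial UMIs. T cells, members and comparison classes were chosen per cell by the rules in the text. A gene of the naive-type rule and some single-gene results are not reported here. The members and the gene lists were chosen with earlier results of these data known. Counts were summed per class and hashtag and scaled to CPM, and log2 ratios (prior count 0.5) were taken within each hashtag that had at least 30 cells in both classes. A gene was called at 10 CPM or more in either class, a median log2 ratio of 1 or more in size and the same sign in every hashtag used. With 1 library and hashtags not tied to conditions there was no test. Intervals are exact Poisson for levels, exact binomial (Clopper-Pearson) for shares and exact conditional for pooled ratios, at 95%, and cover counting error only.

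The genes named are the 12 of largest median ratio in each direction among those called, again at 50 CPM or more where counts allow, up to 4 per list in each direction, the clock genes, and genes whose level differed at least 4 times between hashtags. A name outside this rule was chosen after its values were seen. Scrublet in scanpy 1.11.5 set a threshold that marked 0 of 21231 cells, so it did not work, and no cell was removed as a doublet. Of the members, 54 (4.50%) lay among the 10% of cells with the highest scores. The ratio code was tested on simulated counts. Sums and intervals used scipy 1.17.1, numpy 2.4.6 and pandas 2.3.3 under Python 3.11.15, and plots used matplotlib 3.10.9. Promoter sequences and gene positions are RefSeq's (GRCm38.p6). Of 55487 gene IDs, 54349 were found in a separate reference list of gene names, 52570 of them with the same symbol. Alternatives are listed at the end.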

Additional observations from a re-analysis of the deposited data

Results flagged for a closer look

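Among T cells without a clear hashtag, which entered none of the comparisons, 677 met the marker rule of the members. They were singled out because they met the marker rule outside the data compared, and no level was read from them. Of all cells without a clear hashtag, 6438 had 10 or more counts of another hashtag beside their top tag. Of these 6438, 26.3% lay among the 10% of cells with the highest Scrublet scores, against 10.3% of all cells given to Scrublet. How many of the 677 were barcodes shared by several cells was not tested.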

How the results depend on the processing

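The counts of called genes rest on few UMIs per hashtag and move with the settings. List medians were counted as reversed in 1 of 1245 recomputed values and single genes in 34 of 4641 (28 genes). Only called genes, and lists whose main median passed a size limit, could count as reversed, although these totals hold the others too. The naive, activation and effector lists against Ifng-detected cells lay below that limit, so a sign change in them was not counted. The member share of 8.72% was 2.17% with at least 3 of the 5 markers, 6.6% with Ly6c2 not used, 5.61% after thinning to 1500 UMIs, 9.61% without cells with an Ikzf2 UMI and 7.54% to 10.1% with 1 hashtag left out. The ratio of highest to lowest hashtag share (3.22) was 7.10 with 3 markers, 5.46 after thinning and 5.22 without Ikzf2 cells, and the 133 genes that differed between hashtags were 830 after thinning.

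Against Ifng-detected cells, the 43 higher and 88 lower genes were 564 and 569 with 3 markers (hashtags 1 and 3 left), 596 and 1020 after thinning (hashtags 1 and 2 left), 18 and 30 at 20 CPM, 121 and 605 at 1 CPM, 5 and 6 at 50 CPM, and 144 and 172 without Ikzf2 cells, with 15 higher at a prior count of 1. With 1 hashtag left out they were 43 to 110 and 88 to 204. Against Gzmk-detected cells, the 1179 higher genes were 554 at a prior count of 1, 661 at 20 CPM and 189 at 50 CPM, and the 1127 lower were 733 at 20 CPM, 2140 at 1 CPM, 234 at 50 CPM and 2241 without Ikzf2 cells. That comparison gave no value with 3 markers, with Ly6c2 not used, after thinning or without hashtag 1. Against naive-type cells, the 315 higher and 73 lower genes were 482 and 237 with 3 markers, 1988 and 311 after thinning (hashtags 5 and 6 left) and 122 and 28 at 50 CPM, with 221 lower at 1 CPM. In the Ly6c2 split, the 20 higher and 28 lower genes were 2013 and 1475 with 3 markers (hashtag 1 left), 509 and 465 with Ly6c2 not used (hashtags 1 and 3 left), 160 and 258 after thinning, 3 and 10 at 20 CPM, 144 and 44 at 1 CPM, and 0 and 3 at 50 CPM. There, 17 were lower at a prior count of 1, 31 were higher without Ikzf2 cells, and leaving out 1 hashtag gave 26 to 60 higher and 32 to 51 lower. Fewer hashtags make the same-sign rule easier to meet, and the cause of the other shifts was not tested.

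Sign changes that could be counted in this way were as follows. With 3 markers, C1qtnf6 was at -0.29 and Adamts5 at 0.50 against Ifng-detected cells, Gzma at -0.82 and Tnfrsf9 at -0.30 against naive-type cells, and Cx3cr1 at -3.38 and Tbkbp1 at -2.16 in the Ly6c2 split. With Ly6c2 not used, Gzma was at -0.025 and Cx3cr1 at -0.67. After thinning, Mlst8 and Zbtb32 were at -0.15, Slc39a8 and Atp1b1 at -1.73, Eya3 at -1.12, Rasa3 at -0.14, Lag3 at 1.0, Xcl1 at 0.068, Spp1 at 0.12, Igkc at 0.44 and Ighm at 0.45 against Ifng-detected cells, and Csf2ra at -1.12, Prrt1 at -0.17, Dnajc25 at -0.30, Jup at -0.69, Disp1 at -1.30, Lag3 at 0.47 and H2-Oa at 0.25 in the Ly6c2 split. Without cells with a UMI of Cd8a, Cd8b1, Cd79a, Lyz2 or C1qa, Lyz2 was at -1.39, Igkc at 0.14 and Ighm at 0.34 against Ifng-detected cells. Without cells with 3 or more UMIs of another lineage, Lyz2 was at -0.026, Slpi at -0.47, Ly6d at 0.26 and Ighm at 0.22. Without Ikzf2 cells the NK lectin-like receptor list was at 0.40 against Ifng-detected cells, and Ikzf2 at 0.18 in the Ly6c2 split, where it had been removed.

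The alternatives without Ikzf2 cells, without lineage UMIs of 3 or more, at 50 CPM and without the highest Scrublet scores were chosen after seeing the data. Removal of cells called by Scrublet was not run, as none was called. No paired analysis was possible because no result comes from a test and the labels number no replicates, but every ratio was taken within a hashtag. Genes under about 10 UMIs in a class, Arntl per hashtag included, are limited by depth.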
